A study of Homo sapiens with 32 samples.

Results

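TCam-2, a cell line derived from a human seminoma, was compared with NTera2, a line derived from a human embryonal carcinoma, over all genes and under vehicle alone. The comparison used 8 of the 32 libraries of the series, namely the 4 TCam-2 vehicle and the 4 NTera2 vehicle libraries, which were chosen by their labelled line and treatment. The vehicle was D-PBS, given for 48 h, and the other libraries had RANKL, OPG or denosumab instead. TCam-2 cells were grown in RPMI 1640 and NTera2 cells in DMEM, both with fetal bovine serum, so line and medium cannot be told apart. The libraries of a line came from 4 independent experiments, at passages 118, 120, 121 and 122 for TCam-2 and 27, 29, 30 and 31 for NTera2. Each tumour type is represented by 1 line, and every difference below is a difference between these lines.

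Seminoma and embryonal carcinoma are both germ cell tumours of the testis and arise from the same precursor lesion. Seminoma cells resemble primordial germ cells, the embryonic precursors of sperm and egg, and keep a transcription factor network built on SOX17, TFAP2C and PRDM1. Embryonal carcinoma cells resemble the pluripotent epiblast, in which SOX2 works with POU5F1, and in which NODAL, FGF and WNT signals hold the undifferentiated state. Epiblast cells are poised towards neural fate and carry much DNA methylation, whereas primordial germ cells erase theirs.

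Polyadenylated RNA was counted per gene in libraries of 10920208 to 15039623 counts for TCam-2 and 11847394 to 17110838 for NTera2. The TCam-2 libraries held between 21491 and 24449 genes with counts and the NTera2 libraries between 25031 and 26645. Levels are given as CPM, the count of a gene scaled to the size of its library, and each log2 fold change (log2FC) is TCam-2 over NTera2 with its standard error (SE) where a full test result is given. Of 61541 genes 16816 had enough counts to be tested, and 26905 had none in these 8 libraries. Any pair of libraries had a Spearman correlation of 0.986 to 0.993 within TCam-2, 0.992 to 0.995 within NTera2 and 0.798 to 0.808 between the lines.

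A gene was called when edgeR's adjusted p was under 0.05, and a strong call was also at least 4-fold. By the first rule 76.2% of tested genes were called, 37.4% higher and 38.8% lower in TCam-2, and in 70.2% the libraries of the lines did not overlap. Strong calls made up 23.2% of tested genes, 9.68% higher and 13.6% lower. The median log2 fold change of tested genes was -0.01 and the median absolute value 0.84. A gene that is expressed in 1 line alone passes the count filter through that line and had to differ, so counts over the tested members of a gene group are descriptions to be read against these shares. In bulk RNA, fewer cells of a kind and less RNA per cell cannot be told apart.

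The labels were first checked against markers. SOX17, the transcription factor that starts the human germ cell programme (ENSG00000164736, hg38 chr8:54457935-54460892, plus strand), had 153, 180.2, 129.6 and 191 CPM in the TCam-2 libraries, against 0, 0, 0.0793 and 0.0582 CPM in the NTera2 libraries (ratio 5190, counting interval 1440 to 42900, edgeR adjusted p = 7.94e-16). TFAP2C, which acts beside it in germ cell specification (ENSG00000087510, hg38 chr20:56629306-56639283, plus strand), had 1314, 1519, 1509 and 1391 CPM in the TCam-2 libraries, against 19.6, 20.2, 22 and 18.9 CPM in the NTera2 libraries (log2FC 6.15, SE 0.0844, edgeR adjusted p = 4.64e-18). The TCam-2 libraries were high and the NTera2 libraries low for both genes, with no overlap. SOX2, the partner of POU5F1 in epiblast-like cells (ENSG00000181449, hg38 chr3:181711925-181714436, plus strand), had 2.87, 3.95, 1.47 and 1.88 CPM in the TCam-2 libraries, against 280.5, 336, 266 and 325 CPM in the NTera2 libraries (log2FC -6.93, SE 0.176, edgeR adjusted p = 3.29e-15). DNMT3B, a de novo DNA methyltransferase of pluripotent cells (ENSG00000088305, hg38 chr20:32762385-32809356, plus strand), had 69, 62.3, 62.5 and 60.1 CPM in the TCam-2 libraries, against 1111, 1135, 1008 and 939 CPM in the NTera2 libraries (log2FC -4.05, SE 0.0814, edgeR adjusted p = 2.39e-16). For this pair the NTera2 libraries were the high ones, again with no overlap, so all 4 markers followed the labelled lines.

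Markers of cell types that a pure culture should lack were summed in each library. Of 11 blood and immune markers none had enough counts to be tested, and their summed level was 0.964 to 7.9 CPM in TCam-2 and 0.466 to 0.634 CPM in NTera2, with PTPRC at 0 counts in both lines. The summed level of 10 fibroblast markers was 284 to 315 CPM in TCam-2 and 75.8 to 85.5 CPM in NTera2. COL1A2, a fibrillar collagen chain, made up most of it in TCam-2 (283 CPM in TCam-2 against 0.66 in NTera2), while DCN was at 0.0194 CPM in TCam-2 against 0.0137 in NTera2 and FAP and DPT had no counts. For 12 Sertoli, Leydig and endothelial markers the sums were 24.8 to 32.2 CPM in TCam-2 and 82 to 112 CPM in NTera2, led in NTera2 by AMH and STAR, and CYP17A1 and HSD3B2 had no counts. For 16 markers of yolk sac tumour, choriocarcinoma and teratoma they were 123 to 241 CPM in TCam-2 and 182 to 197 CPM in NTera2, led by KRT7 in TCam-2 and GPC3 in NTera2, and CGA had no counts. The part of other cell types in the results below was not tested.

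**Figure D1:**
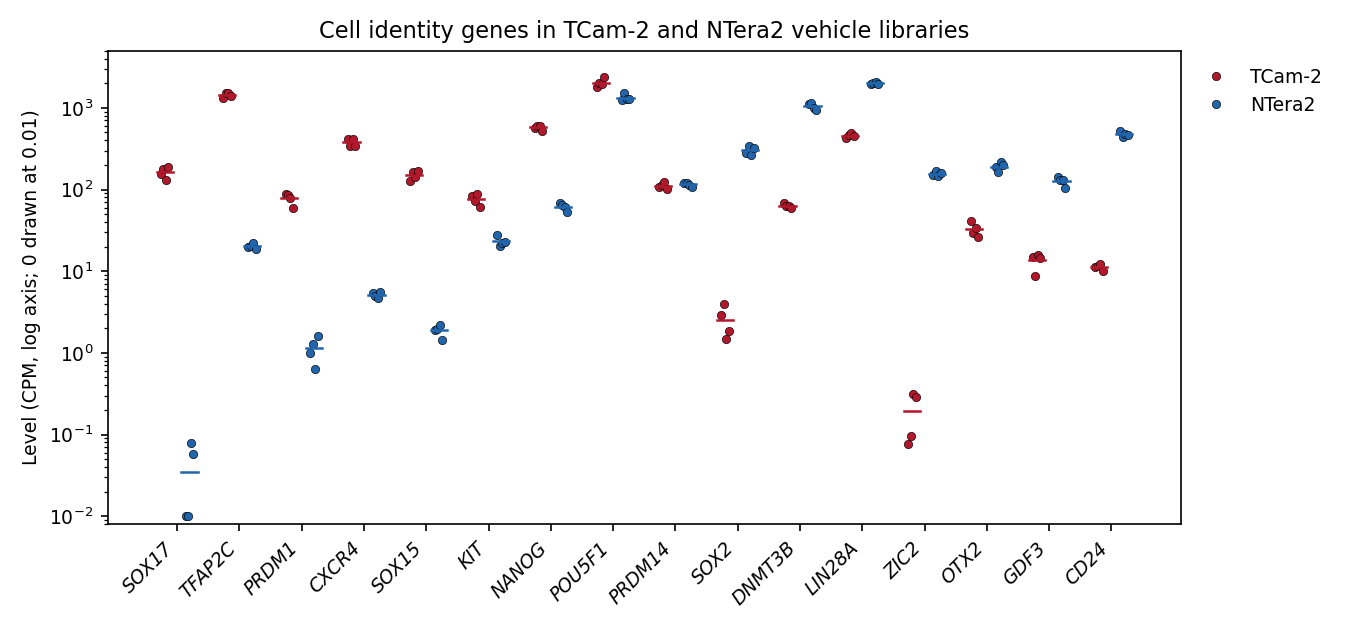
Levels of 16 cell identity genes in each library, in CPM on a log axis, with a short bar at the mean of the 4 libraries. TCam-2 stands left of NTera2 for each gene, and a library without counts is drawn at 0.01. The germ cell genes on the left lie higher in TCam-2 and the embryonal carcinoma genes on the right higher in NTera2, while POU5F1 and PRDM14 differ by less than 2-fold.

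Germ cell genes were mostly higher in TCam-2. Of 19 listed germ cell specifiers 16 were tested, 12 were called higher and 1 lower, with a median log2 fold change of 4.38. Beside the markers, the strong calls included PRDM1, the repressor that keeps germ cell precursors from somatic fate (78.5 CPM in TCam-2 against 1.13 in NTera2, log2FC 6.07). CXCR4, the chemokine receptor that guides migrating germ cells, stood at 379 CPM in TCam-2 against 5.15 CPM in NTera2 (log2FC 6.19). KIT, the receptor tyrosine kinase on which germ cell survival depends, differed less, at 76.2 CPM in TCam-2 against 23.3 CPM in NTera2 (log2FC 1.71). The exception was DPPA3, a gene of germ cells and early embryos, which was lower at 0.507 CPM in TCam-2 against 25.9 in NTera2 (log2FC -5.62). PRDM14, also a germ cell specifier, was at 111 CPM in TCam-2 against 115 in NTera2 and was not called (log2FC -0.05, SE 0.0796, edgeR adjusted p = 0.544). The later germ cell markers DAZL and DDX4 had too few counts to be tested, with DAZL at no counts in TCam-2 against 0.82 CPM in NTera2 and DDX4 at 0.818 CPM in TCam-2 against 0.0283 in NTera2.

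Meiotic and piRNA genes were split between the lines. Of 37 listed genes only 16 could be tested, 6 were higher and 7 lower, and the core synaptonemal genes SYCP1 and SYCP3 and the meiotic nuclease SPO11 were at or near 0 in both lines. PIWIL2, a piRNA-binding Argonaute protein, had 0.233, 0, 0.0774 and 0 CPM in the TCam-2 libraries, against 104, 103, 111 and 98.9 CPM in the NTera2 libraries (log2FC -10.20, SE 0.235, edgeR adjusted p = 9.81e-16). Its pathway partner MOV10L1, an RNA helicase, had no counts in TCam-2 against 0.958 CPM in NTera2 (at least 16-fold lower). In the opposite direction, the Tudor proteins of the same pathway were higher in TCam-2, with TDRD9 at 19.1 CPM in TCam-2 against no counts in NTera2 (at least 406-fold higher), RNF17 at 10.3 CPM in TCam-2 against no counts in NTera2 (at least 220-fold higher) and TDRD12 at 214 CPM in TCam-2 against 65.5 in NTera2 (log2FC 1.71).

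The pluripotency genes that both tumours share were present in both lines, but at unequal levels. Of 12 tested, 7 were higher and 5 lower. POU5F1, the shared core factor, had 1819, 2001, 1973 and 2374 CPM in the TCam-2 libraries, against 1259, 1517, 1275 and 1266 CPM in the NTera2 libraries (log2FC 0.62, SE 0.0821, edgeR adjusted p = 3.33e-06), and its pseudogenes may share reads. NANOG, a homeobox factor of pluripotent and germ cells, had 571, 605, 597 and 526 CPM in the TCam-2 libraries, against 67.6, 65, 61.8 and 52.4 CPM in the NTera2 libraries (log2FC 3.22, SE 0.0861, edgeR adjusted p = 6.01e-15). TBX3 and KLF5, factors linked to the naive state, stood at 40 CPM in TCam-2 against 0.521 in NTera2 (log2FC 6.24) and 27.9 CPM in TCam-2 against 0.662 in NTera2 (log2FC 5.44). LIN28A, which blocks let-7 maturation, was lower at 456 CPM in TCam-2 against 1994 in NTera2 (log2FC -2.13), while its paralogue LIN28B was higher at 126 CPM in TCam-2 against 67.9 in NTera2 (log2FC 0.90). Genes of the primed epiblast and of embryonal carcinoma were lower in TCam-2 in 18 of 21 tested, 14 of them strongly. ZIC2, an epiblast zinc finger factor, had 0.0775, 0.0964, 0.31 and 0.289 CPM in the TCam-2 libraries, against 151, 168, 148 and 159.6 CPM in the NTera2 libraries (log2FC -9.55, SE 0.176, edgeR adjusted p = 9.98e-17). OTX2, a homeobox factor that opposes germ cell entry in mouse, was at 32.6 CPM in TCam-2 against 191 in NTera2 (log2FC -2.55), and CD24, a surface glycoprotein, at 11.3 CPM in TCam-2 against 476 in NTera2 (log2FC -5.40). FGF4 did not pass the test, at 18.6 CPM in TCam-2 against 18.3 in NTera2 (log2FC 0.02, SE 0.176, edgeR adjusted p = 0.914).

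Neural and anterior ectoderm regulators were mostly lower in TCam-2. They were lower in TCam-2 in 22 of 24 tested, with a median log2 fold change of -5.23, or -4.74 with the 4 genes at 0 counts in TCam-2 set to their bound. MAP2, a microtubule protein of neuronal dendrites, had no counts in the 4 TCam-2 libraries, against 86.6, 88.5, 96.5 and 97.8 CPM in the NTera2 libraries (at least 1540-fold lower against the floor of 3 counts over the group, edgeR adjusted p = 2.8e-14). FEZF1, a forebrain zinc finger factor, had no counts in TCam-2 against 41.4 CPM in NTera2 (at least 691-fold lower). SOX3, LHX2, DCX and HESX1 followed, at 0.0554 CPM in TCam-2 against 17.4 in NTera2, 0.297 CPM in TCam-2 against 20.1 in NTera2, 0.0194 CPM in TCam-2 against 7.93 in NTera2 and 0.377 CPM in TCam-2 against 11.7 in NTera2. ZIC1 went the other way, at 18.4 CPM in TCam-2 against 3.66 in NTera2 (log2FC 2.33). NTera2 was also higher for SOX11 (0.246 CPM in TCam-2 against 66.5 in NTera2), SOX21 (1.14 CPM in TCam-2 against 89.9 in NTera2) and SOX8 (0.0193 CPM in TCam-2 against 10.3 in NTera2). Of 14 SOX genes tested, 9 were lower and 4 higher in TCam-2, and the strongly higher pair was SOX17 and SOX15 (150.2 CPM in TCam-2 against 1.89 in NTera2, log2FC 6.32).

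Regulators of mesoderm, endoderm and trophoblast ran higher in TCam-2, mostly at low levels. Of 30 listed, 18 were tested, 12 were higher and 3 lower. GATA4, a factor of endoderm, heart and gonad, had 43.2, 52.9, 47.5 and 47.1 CPM in the TCam-2 libraries, against 0.165, 0.318, 0.396 and 0.291 CPM in the NTera2 libraries (log2FC 7.35, SE 0.194, edgeR adjusted p = 5.09e-15). MSX2, a homeobox target of BMP signals, was at 216 CPM in TCam-2 against 5.55 in NTera2 (log2FC 5.28), HAND1 at 10.4 CPM in TCam-2 against no counts in NTera2 (at least 222-fold higher), TFAP2A at 31.2 CPM in TCam-2 against 0.765 in NTera2 (log2FC 5.30) and CDX2 at 4.13 CPM in TCam-2 against 0.0146 in NTera2 (a ratio of 266 with a counting interval of 47.2 to 10600). KDR, the VEGF receptor of vascular precursors, was the strongest exception at 0.286 CPM in TCam-2 against 18.5 in NTera2 (log2FC -6.10). FOXA2, TBXT and EOMES had too few counts to be tested.

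HOX genes, which give position along the body axis and sit in 4 clusters, were detected mainly in TCam-2. Of 39 HOX genes 19 were tested, 15 were higher and 3 lower in TCam-2, and 9 of the 19 had no counts in NTera2. HOXB7 had 6.12, 10.5, 6.74 and 10.2 CPM in the TCam-2 libraries, against no counts in the 4 NTera2 libraries (at least 178-fold higher against the floor of 3 counts over the group, edgeR adjusted p = 3.02e-09). HOXB13, a posterior gene, had 7.68 CPM in TCam-2 against 0.361 in NTera2 (log2FC 4.33). The genes lower in TCam-2 were HOXD13 (1.09 CPM in TCam-2 against 4.26 in NTera2), HOXD10 (0.19 CPM in TCam-2 against 1.13 in NTera2) and HOXB1 (no counts in TCam-2 against 0.905 CPM in NTera2). EVX1, which neighbours the HOXA cluster, followed it at 12.7 CPM in TCam-2 against 0.0344 in NTera2.

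**Figure D2:**
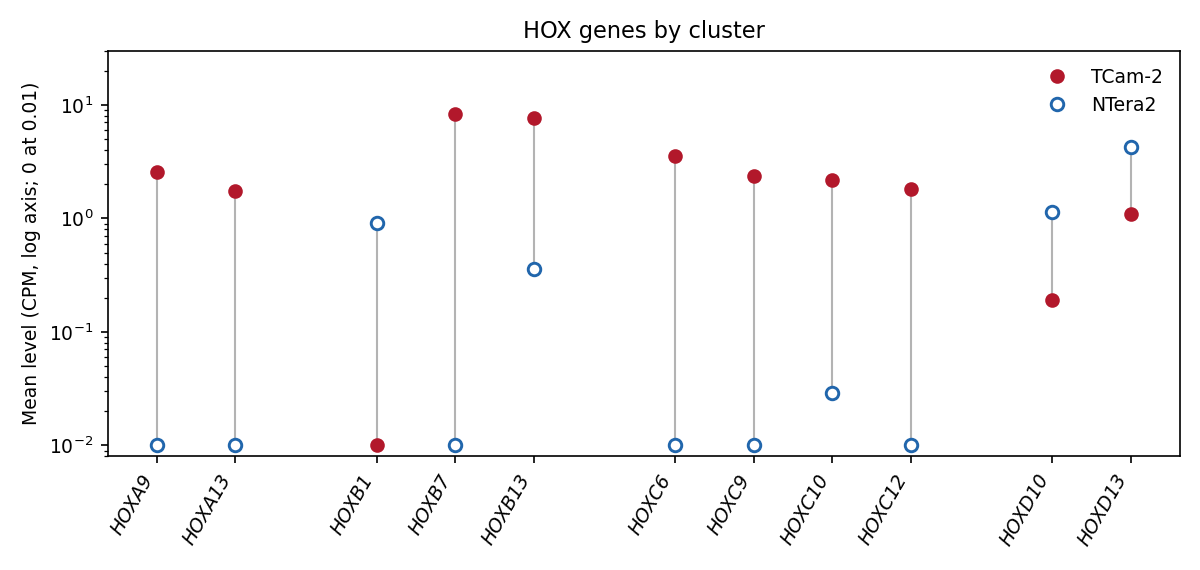
Mean level of the HOX genes named in the text in TCam-2 (filled circles) and NTera2 (open circles), in CPM on a log axis, grouped by cluster. A mean of 0 is drawn at 0.01. The TCam-2 circles lie above the NTera2 circles except for HOXB1, HOXD10 and HOXD13. Only some of the tested HOX genes are shown. The HOXA and HOXC genes were named as members of runs chosen for being silent in NTera2, so their direction was set by that choice.

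DNA methylation genes differed in both directions. Among 18 tested writers, erasers and readers 8 were higher and 5 lower in TCam-2. Strong calls were 27.8%, near the 23.2% of all tested genes. DNMT3L, the catalytically inactive partner of the de novo enzymes in germ cells, had 36.3, 52.5, 60.9 and 69.5 CPM in the TCam-2 libraries, against 0.714, 1.21, 0.793 and 0.291 CPM in the NTera2 libraries (log2FC 6.19, SE 0.274, edgeR adjusted p = 3.29e-12). It ran opposite to DNMT3B, while DNMT3A, the other active de novo enzyme, was at 151 CPM in TCam-2 against 139 in NTera2 and was not called (log2FC 0.11, SE 0.0686, edgeR adjusted p = 0.142). DNMT1, which copies methylation at replication, was lower at 253 CPM in TCam-2 against 402 in NTera2 (log2FC -0.67), and so was its recruiter UHRF1 at 32.5 CPM in TCam-2 against 57 in NTera2 (log2FC -0.82). The TET enzymes oxidise methylcytosine. TET2 was at 94.4 CPM in TCam-2 against 8.42 in NTera2 (log2FC 3.50), TET1 at 82.3 CPM in TCam-2 against 34.6 in NTera2 (log2FC 1.25) and TET3 at 72.2 CPM in TCam-2 against 58.9 in NTera2 (log2FC 0.29), all higher in TCam-2. The TET3 call was lost without TCam-2 vehicle replicate 1, 2 or 3 or NTera2 vehicle replicate 1 or 4, with edgeR adjusted p of 0.0634 to 0.142.

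Polycomb and histone methylation genes were present in both lines and mostly differed by less than 4-fold. Of 35 tested, 11 were higher and 16 lower, yet only 5.71% were strong calls, below the 23.2% of all tested genes. Within Polycomb complex 2, which writes H3K27 methylation, the catalytic EZH2 was lower at 27.7 CPM in TCam-2 against 87.1 in NTera2 (log2FC -1.65), SUZ12 higher at 44.7 CPM in TCam-2 against 24.3 in NTera2 (log2FC 0.88) and EED not called at 29 CPM in TCam-2 against 32.9 in NTera2 (log2FC -0.18, SE 0.0974, edgeR adjusted p = 0.0953). Within complex 1, BMI1 was higher at 9.14 CPM in TCam-2 against 1.61 in NTera2 (log2FC 2.49) and CBX2 and PHC1 lower at 78.9 CPM in TCam-2 against 232 in NTera2 and 176 CPM in TCam-2 against 513 in NTera2. TRIM28, the corepressor that zinc finger proteins bring to retroelements, was at 1617 CPM in TCam-2 against 491 in NTera2 (log2FC 1.72). Zinc finger genes also mostly differed by less than 4-fold. Of 494 tested ZNF genes 136 were higher and 201 lower, and 9.92% were strong calls.

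Promoters were described by their CpG pairs, the sites at which DNA is methylated. RefSeq gave a promoter, 250 bases before to 50 after the start on GRCh38.p14, for 11812 of the 16816 tested genes. An observed over expected CpG ratio above 0.6 was found in 81.4% of these promoters, in 63.9% of those of genes strongly higher in TCam-2 and in 64.4% of those strongly lower. For genes strongly higher with at most 10 counts in the NTera2 libraries the share was 49.5% (100 of 202), and for genes strongly lower with at most 10 counts in the TCam-2 libraries it was 54.4% (279 of 513). These shares are descriptions, and the methylation of these promoters was not measured. PRAME, a cancer-testis antigen at 1252 CPM in TCam-2 against 0.186 CPM in NTera2, has a ratio of 0.48, and SOX2 one of 0.67. They are shown because they stand on either side of that mark, with each CG in capitals, 13 in the PRAME promoter (chr22:22559216-22559515, minus strand) and 20 in that of SOX2 (chr3:181711675-181711974, plus strand).
PRAME: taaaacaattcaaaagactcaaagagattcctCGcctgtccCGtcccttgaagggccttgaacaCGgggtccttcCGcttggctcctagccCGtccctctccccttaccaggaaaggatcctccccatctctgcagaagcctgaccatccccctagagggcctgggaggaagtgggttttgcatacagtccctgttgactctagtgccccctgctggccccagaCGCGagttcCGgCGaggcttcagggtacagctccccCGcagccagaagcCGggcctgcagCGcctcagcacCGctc
SOX2: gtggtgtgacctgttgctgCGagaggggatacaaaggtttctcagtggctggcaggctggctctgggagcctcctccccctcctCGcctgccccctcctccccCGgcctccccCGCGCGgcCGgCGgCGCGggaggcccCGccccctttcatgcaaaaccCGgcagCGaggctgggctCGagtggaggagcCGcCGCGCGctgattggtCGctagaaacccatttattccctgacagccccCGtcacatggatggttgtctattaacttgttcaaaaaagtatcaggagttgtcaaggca

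Listed junction genes and their regulators were more often higher than lower in TCam-2, and the zinc finger repressors ZEB1 and ZEB2 were lower. Cadherins and tight junction proteins join epithelial cells, and ZEB1 and ZEB2 silence them by binding CACCTG in their promoters. Of 37 tested junction genes and their regulators 22 were higher and 13 lower in TCam-2, with a median log2 fold change of 1.62. CDH1, the epithelial cadherin, had 417, 409, 445 and 386 CPM in the TCam-2 libraries, against 51.9, 45.4, 43 and 40.6 CPM in the NTera2 libraries (log2FC 3.20, SE 0.0857, edgeR adjusted p = 6.09e-15). ZEB2 had no counts in the 4 TCam-2 libraries, against 20, 19.5, 21.3 and 23.3 CPM in the NTera2 libraries (at least 351-fold lower against the floor of 3 counts over the group, edgeR adjusted p = 1.06e-11), and ZEB1 was at 0.0723 CPM in TCam-2 against 8.25 in NTera2 (a ratio of 139 with a counting interval of 47.2 to 675). The libraries did not overlap for any of these genes. OVOL2 and GRHL2, factors that hold the epithelial state, were at 22.5 CPM in TCam-2 against 0.0571 in NTera2 (log2FC 8.30) and 102 CPM in TCam-2 against 1.72 in NTera2 (log2FC 5.88), and the splicing regulator ESRP1 at 249 CPM in TCam-2 against 32.7 in NTera2 (log2FC 2.92). CLDN7 and OCLN, tight junction proteins, were at 87.2 CPM in TCam-2 against 3.2 in NTera2 (log2FC 4.76) and 47.3 CPM in TCam-2 against 7.16 in NTera2 (log2FC 2.72). Taken by symbol, the gene families did not share that direction. Of 11 tested genes with a CLDN symbol 3 were higher and 7 lower, with a median log2 fold change of -0.92. Of 17 tested with a CDH symbol, which include the antisense RNA CDH3-AS1, 5 were higher and 10 lower, with a median of -1.3.

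The cadherin pattern was not one of exchange. CDH2, the cadherin usually gained when epithelial cells turn mesenchymal, was also higher in TCam-2 at 397 CPM in TCam-2 against 55.7 in NTera2 (log2FC 2.83), and so was CDH3 at 339.9 CPM in TCam-2 against 47.2 in NTera2. CDH11, a mesenchymal cadherin, had no counts in TCam-2 against 28.2 CPM in NTera2 (at least 470-fold lower) and CDH13 0.0193 CPM in TCam-2 against 11.5 in NTera2 (a ratio of 577 with a counting interval of 103 to 22800). SNAI1, another repressor of CDH1, was lower at 4.67 CPM in TCam-2 against 10.5 in NTera2 (log2FC -1.16), and SNAI2 was not called at 1.7 CPM in TCam-2 against 1.5 in NTera2 (log2FC 0.17, SE 0.341, edgeR adjusted p = 0.663). VIM, the mesenchymal filament protein vimentin, was higher at 816 CPM in TCam-2 against 432 in NTera2 (log2FC 0.92).

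Listed simple keratin and desmosome genes were mostly higher in TCam-2. Of 14 tested, 13 were higher, none lower, and PPL was not called. Outside that list KRT10, a keratin of stratified epithelia, was lower at 5.3 CPM in TCam-2 against 11.4 in NTera2 (log2FC -1.11). KRT18 had 2576, 3831, 3637 and 4753 CPM in the TCam-2 libraries, against 424, 487, 421 and 410.4 CPM in the NTera2 libraries (log2FC 3.09, SE 0.136, edgeR adjusted p = 3.29e-12), and KRT8, its filament partner, was at 3333 CPM in TCam-2 against 783 in NTera2 (log2FC 2.09). PKP3, a plakophilin of the desmosomal plaque, was at 123 CPM in TCam-2 against 0.0495 in NTera2 (a ratio of 2620 with a counting interval of 895 to 12700). DSP, the desmoplakin that ties desmosomes to keratin, was at 302 CPM in TCam-2 against 39.9 in NTera2 (log2FC 2.92), and JUP at 1130 CPM in TCam-2 against 129 in NTera2 (log2FC 3.13). KRT8 and KRT18 have many processed copies: 31 of 38 tested genes whose symbols begin with KRT were such pseudogenes, and 29 of the 31 were called higher, so reads of the parents and copies may be shared.

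Promoters of genes strongly higher in TCam-2 held CACCTG, or its reverse complement CAGGTG, in 25% of 948, against 18.5% of all 11812 and 19.2% of 1484 strongly lower. DSP and OCLN are printed because both hold the motif and belong to the groups above, with each occurrence in capitals, 2 for DSP (chr6:7541421-7541720, plus strand) and 1 for OCLN (chr5:69492297-69492596, plus strand). How many of the junction, keratin and desmosome genes hold the motif was not counted. The other motif searched, GCCNNNGGC, which reads the same on both strands and is bound by AP-2 factors such as TFAP2C, was held by 30.5% of promoters of strongly higher genes, 32.5% of those of strongly lower genes and 32.2% of all. A match of these letters is a description, and binding was not measured.
DSP: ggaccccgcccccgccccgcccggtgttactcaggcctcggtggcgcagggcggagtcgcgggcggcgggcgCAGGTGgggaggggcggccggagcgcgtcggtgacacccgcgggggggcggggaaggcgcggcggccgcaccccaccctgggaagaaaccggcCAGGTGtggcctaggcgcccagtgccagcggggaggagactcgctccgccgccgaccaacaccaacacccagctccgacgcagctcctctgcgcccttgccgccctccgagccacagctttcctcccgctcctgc
OCLN: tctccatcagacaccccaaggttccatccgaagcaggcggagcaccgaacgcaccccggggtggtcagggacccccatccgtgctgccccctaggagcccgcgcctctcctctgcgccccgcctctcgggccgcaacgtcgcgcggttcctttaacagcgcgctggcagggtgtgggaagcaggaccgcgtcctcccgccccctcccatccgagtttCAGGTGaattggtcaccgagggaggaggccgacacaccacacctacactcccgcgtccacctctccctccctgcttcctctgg

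MIR200CHG and MIR205HG, host transcripts of microRNAs that target ZEB1 and ZEB2, were higher in TCam-2. Among 19 tested noncoding RNA hosts of pluripotent and imprinted cells 9 were higher and 8 lower, with strong calls 5 higher and 6 lower. MIR200CHG, which carries miR-200c and miR-141, had 2.71, 3.57, 1.78 and 4.4 CPM in the TCam-2 libraries, against 0, 0.0636, 0 and 0 CPM in the NTera2 libraries (ratio 199, counting interval 35.1 to 7900, edgeR adjusted p = 5.62e-08). MIR205HG, which carries miR-205, was at 26.7 CPM in TCam-2 against 5.56 in NTera2 (log2FC 2.25). MIR302CHG, the host of the miR-302 and miR-367 cluster of pluripotent cells, was lower at 132 CPM in TCam-2 against 179 in NTera2 (log2FC -0.45). Mature microRNAs were not measured, since these libraries hold polyadenylated RNA. Their RefSeq sequences on GRCh38.p14 are given because they show which hosts carry a like seed, with the seed, bases 2 to 8, in capitals. The 4 listed miR-302 products share AAGUGCU, while miR-200c and miR-141 differ within the seed.
hsa-miR-200c-3p (chr12:6963742-6963764, plus strand): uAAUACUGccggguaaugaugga
hsa-miR-141-3p (chr12:6964155-6964176, plus strand): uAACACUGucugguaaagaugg
hsa-miR-205-5p (chr1:209432166-209432187, plus strand): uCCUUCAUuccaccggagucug
hsa-miR-302a-3p (chr4:112648186-112648208, minus strand): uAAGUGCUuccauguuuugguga
hsa-miR-302b-3p (chr4:112648489-112648511, minus strand): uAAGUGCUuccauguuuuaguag
hsa-miR-302c-3p (chr4:112648366-112648388, minus strand): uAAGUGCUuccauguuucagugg
hsa-miR-302d-3p (chr4:112648006-112648028, minus strand): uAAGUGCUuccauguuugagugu
hsa-miR-367-3p (chr4:112647877-112647898, minus strand): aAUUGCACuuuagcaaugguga

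Matrix and integrin genes differed in both directions. Of 52 tested, 20 were higher and 27 lower in TCam-2. Among basement membrane chains of collagen IV and laminin, those higher included COL4A1 at 808 CPM in TCam-2 against 174 in NTera2 (log2FC 2.21), LAMC1 at 1922 CPM in TCam-2 against 402 in NTera2 (log2FC 2.26) and LAMA4 at 249 CPM in TCam-2 against 1.87 in NTera2 (log2FC 7.05). Of their linkers in the same membrane, the lower ones included the proteoglycan HSPG2 at 5.53 CPM in TCam-2 against 110.5 in NTera2 (log2FC -4.30) and nidogen NID1 at 5.64 CPM in TCam-2 against 89 in NTera2 (log2FC -3.99). LAMA1, the embryonic laminin chain, was lower at 18.2 CPM in TCam-2 against 131 in NTera2 (log2FC -2.84). Of the interstitial proteins, THBS2 was lower at no counts in TCam-2 against 41 CPM in NTera2 (at least 685-fold lower) and COL1A2 higher at 283 CPM in TCam-2 against 0.66 in NTera2 (log2FC 8.76). ITGB4, the hemidesmosome integrin, was higher at 69 CPM in TCam-2 against 1.43 in NTera2 (log2FC 5.60), and ITGA7 and ITGA4 were lower at 7.63 CPM in TCam-2 against 168 in NTera2 and 0.0581 CPM in TCam-2 against 7.44 in NTera2.

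**Figure D3:**
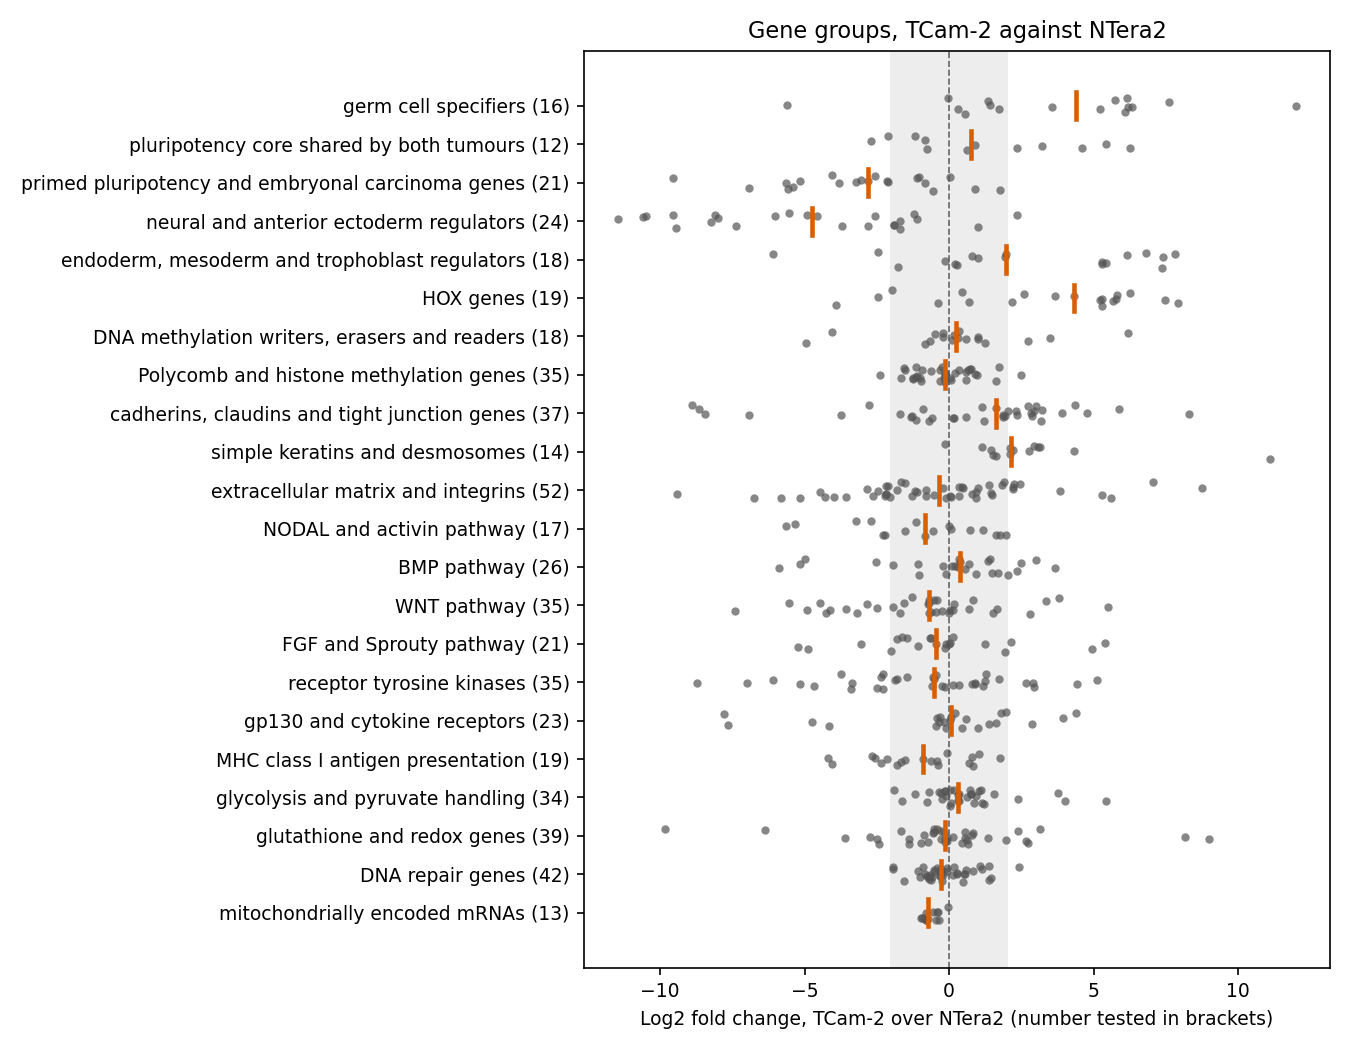
Log2 fold change, TCam-2 over NTera2, of every tested member (dots) of 22 gene groups, with a bar at the group's median. The dashed line marks 0, near the median of all tested genes of -0.01, and the shaded band marks less than 4-fold in either direction. Genes at 0 counts in 1 line are drawn at their bound.

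NODAL and activin pathway genes were more often lower than higher in TCam-2, inhibitors and ligands among them. Of 17 tested genes 4 were higher and 10 lower. The ligand NODAL was at 1.29 CPM in TCam-2 against 0.383 in NTera2 (log2FC 1.77, SE 0.612, edgeR adjusted p = 0.0152), and INHBA and INHBB had too few counts to be tested. The NODAL call was lost without TCam-2 vehicle replicate 1 or NTera2 vehicle replicate 1 or 2, with edgeR adjusted p of 0.0557 to 0.0817. GDF3, a related ligand, had 15.1, 8.68, 15.8 and 14.7 CPM in the TCam-2 libraries, against 144, 129.6, 131 and 103 CPM in the NTera2 libraries (log2FC -3.21, SE 0.151, edgeR adjusted p = 7.39e-12). The coreceptor TDGF1 was at 93.7 CPM in TCam-2 against 138 in NTera2 (log2FC -0.55), the type I receptor ACVR1B at 219.7 CPM in TCam-2 against 71.6 in NTera2 (log2FC 1.62) and the type II receptor ACVR2B at 50.9 CPM in TCam-2 against 112 in NTera2 (log2FC -1.14). FOXH1, the DNA-binding partner of SMAD2, was lower at 8.02 CPM in TCam-2 against 51.8 in NTera2 (log2FC -2.71), SMAD2 higher at 73.3 CPM in TCam-2 against 32.5 in NTera2 (log2FC 1.17) and SMAD3 lower at 30.2 CPM in TCam-2 against 54.1 in NTera2 (log2FC -0.85). The secreted inhibitors FST and LEFTY2 were at 15.4 CPM in TCam-2 against 71.5 in NTera2 (log2FC -2.21) and 0.0822 CPM in TCam-2 against 4.37 in NTera2 (log2FC -5.63).

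In the BMP pathway, which induces germ cell fate in the embryo, genes were more often higher than lower in TCam-2. Of 26 tested genes 13 were higher and 7 lower. ID1, a direct target, had 389.5, 473, 303 and 558 CPM in the TCam-2 libraries, against 67.6, 92.2, 61.5 and 86.1 CPM in the NTera2 libraries (log2FC 2.49, SE 0.162, edgeR adjusted p = 5e-10). ID3 was at 204 CPM in TCam-2 against 73.3 in NTera2 (log2FC 1.48) and ID4 at 44 CPM in TCam-2 against 8.54 in NTera2 (log2FC 2.36), while ID2 was not called at 44.9 CPM in TCam-2 against 48.1 in NTera2 (log2FC -0.10, SE 0.118, edgeR adjusted p = 0.466). The receptors BMPR1A, ACVR1 and BMPR2 were at 126 CPM in TCam-2 against 39.3 in NTera2, 74.1 CPM in TCam-2 against 27.6 in NTera2 and 36.7 CPM in TCam-2 against 19.2 in NTera2, each called higher. The ligands BMP7, BMP4 and BMP2 were lower at 9.51 CPM in TCam-2 against 54.5 in NTera2 (log2FC -2.52), 7.3 CPM in TCam-2 against 15 in NTera2 (log2FC -1.05) and 0.576 CPM in TCam-2 against 2.31 in NTera2 (log2FC -1.95), and BMP8A was higher at 4 CPM in TCam-2 against 0.477 in NTera2 (log2FC 3.02). The antagonist NOG had no counts in TCam-2 against 3.53 CPM in NTera2 (at least 58.9-fold lower), and GREM1 0.152 CPM in TCam-2 against 5.37 in NTera2 (log2FC -5.00).

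WNT pathway genes were more often lower than higher in TCam-2. Of 35 tested genes 8 were higher and 21 lower. SFRP1, a secreted decoy that binds WNT proteins, had 3.64, 3.47, 2.4 and 1.59 CPM in the TCam-2 libraries, against 469, 450, 479 and 469 CPM in the NTera2 libraries (log2FC -7.41, SE 0.145, edgeR adjusted p = 1.77e-16). SFRP2 and FRZB, of the same family, were at 4.19 CPM in TCam-2 against 197 in NTera2 (log2FC -5.54) and 0.316 CPM in TCam-2 against 10.3 in NTera2 (log2FC -4.90). Of the 10 frizzled receptors all were tested, 7 were lower, 1 was higher and 2 were not called. FZD2 was at 5.31 CPM in TCam-2 against 102 in NTera2 (log2FC -4.25) and FZD7 at 21 CPM in TCam-2 against 120.2 in NTera2 (log2FC -2.51), while FZD6 was higher at 64 CPM in TCam-2 against 9.26 in NTera2 (log2FC 2.79). Among ligands WNT5A was lower at 1.07 CPM in TCam-2 against 24.2 in NTera2 (log2FC -4.48) and WNT9A higher at 112 CPM in TCam-2 against 7.98 in NTera2 (log2FC 3.81). The feedback targets AXIN2 and RNF43, which rise with beta-catenin signals in many cells, were higher at 67.6 CPM in TCam-2 against 21.5 in NTera2 (log2FC 1.65) and 17.9 CPM in TCam-2 against 1.71 in NTera2 (log2FC 3.36), and CTNNB1, beta-catenin itself, was lower at 510 CPM in TCam-2 against 778 in NTera2 (log2FC -0.61).

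**Figure D4:**
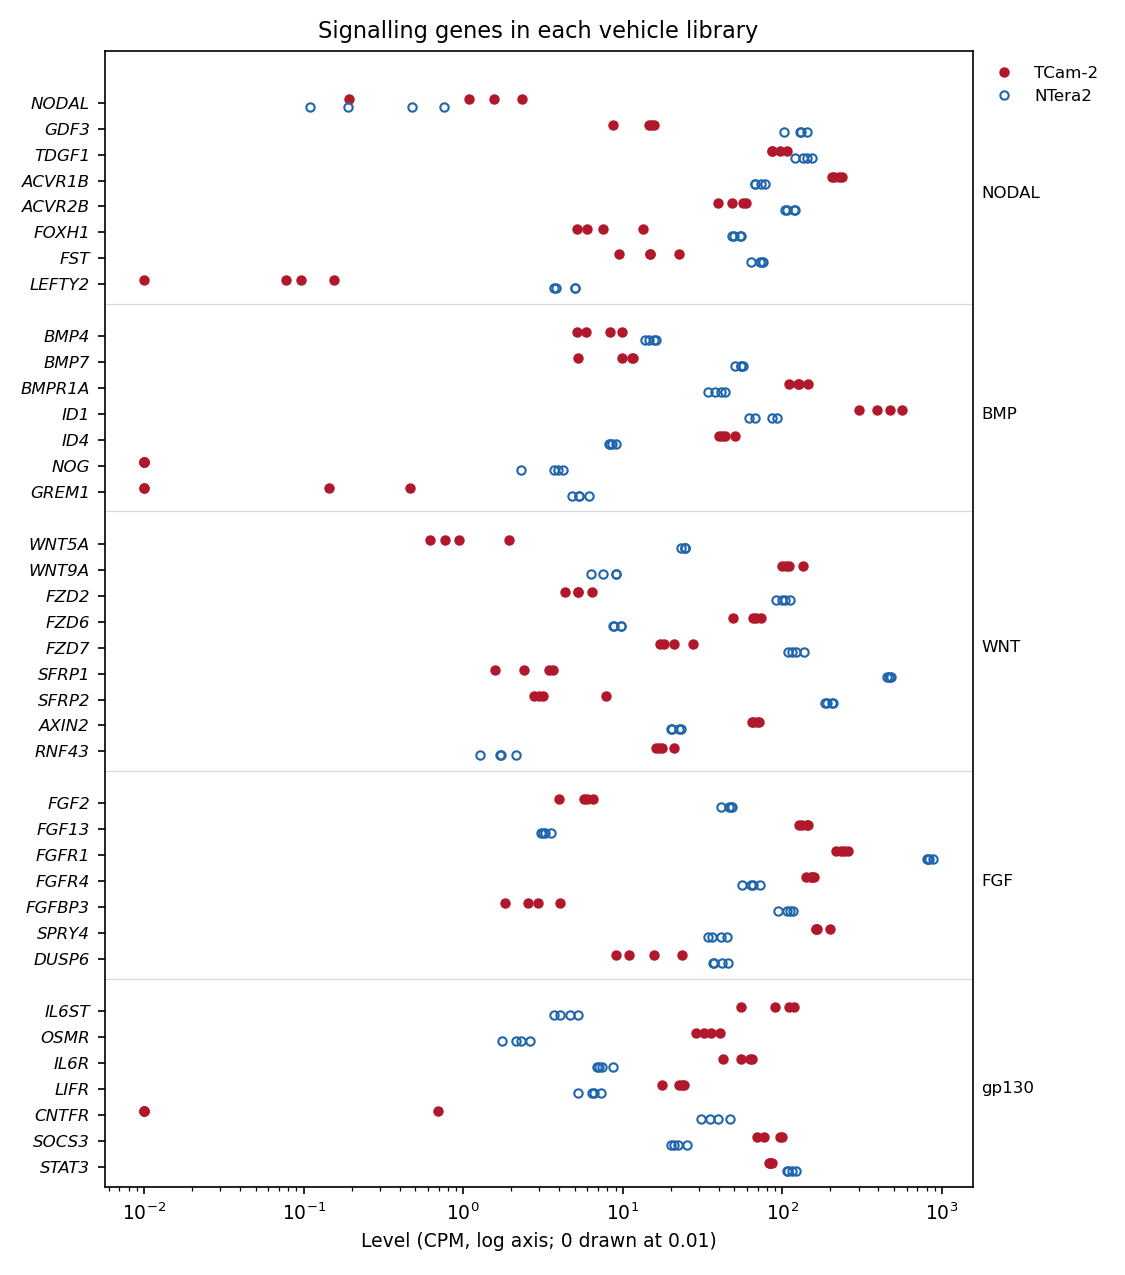
Levels of ligands, receptors, inhibitors and targets of the NODAL, BMP, WNT, FGF and gp130 pathways in each library, in CPM on a log axis, with genes running down the page. TCam-2 libraries are filled and NTera2 libraries open, and a library without counts is drawn at 0.01. SFRP1, SFRP2, NOG and LEFTY2 lie far to the right in NTera2, and ID1, IL6ST, RNF43 and FGF13 in TCam-2.

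FGF signals keep epiblast cells undifferentiated and act through receptors coupled to MAP kinases. Of 21 tested genes 5 were higher and 11 lower in TCam-2. FGF2 was lower at 5.53 CPM in TCam-2 against 45.8 in NTera2 (log2FC -3.05), FGF19 at 0.315 CPM in TCam-2 against 9.68 in NTera2 (log2FC -4.88) and the FGF carrier FGFBP3 at 2.84 CPM in TCam-2 against 107 in NTera2 (log2FC -5.21). FGF13, an intracellular member that is not secreted, was higher at 136 CPM in TCam-2 against 3.27 in NTera2 (log2FC 5.38). Among receptors FGFR1 was lower at 238 CPM in TCam-2 against 832 in NTera2 (log2FC -1.81) and FGFR4 higher at 151 CPM in TCam-2 against 64.3 in NTera2 (log2FC 1.23), while FGFR2 (log2FC -0.15, SE 0.0727, edgeR adjusted p = 0.0731) and FGFR3 (log2FC 0.13, SE 0.101, edgeR adjusted p = 0.255) were not called. The MAP kinase feedback genes split, with SPRY4 higher at 172 CPM in TCam-2 against 39.1 in NTera2 (log2FC 2.14) and DUSP6 and SPRY2 lower at 14.8 CPM in TCam-2 against 40.4 in NTera2 and 23.9 CPM in TCam-2 against 51 in NTera2.

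Receptor tyrosine kinases differed in both directions. Of 35 tested, 13 were higher and 20 lower, and 48.6% were strong calls. MERTK, a receptor for GAS6 and PROS1, had 309, 304, 356 and 283 CPM in the TCam-2 libraries, against 9.17, 10.2, 9.35 and 7.51 CPM in the NTera2 libraries (log2FC 5.11, SE 0.108, edgeR adjusted p = 3.86e-16). AXL, which binds the same ligand GAS6, had 0.155, 0, 0 and 0.505 CPM in the TCam-2 libraries, against 21.7, 24.2, 23.1 and 27.2 CPM in the NTera2 libraries (log2FC -7.00, SE 0.348, edgeR adjusted p = 1.43e-11). The third of that family, TYRO3, was at 310.5 CPM in TCam-2 against 179.9 in NTera2 (log2FC 0.79). Within the ERBB family EGFR was higher at 122 CPM in TCam-2 against 16.2 in NTera2 (log2FC 2.91), ERBB3 higher at 72.8 CPM in TCam-2 against 29.8 in NTera2 (log2FC 1.29) and ERBB2 lower at 124 CPM in TCam-2 against 597 in NTera2 (log2FC -2.27). ROR1 and ROR2, paired WNT receptors, also ran opposite, at 9.73 CPM in TCam-2 against 103 in NTera2 (log2FC -3.39) and 78 CPM in TCam-2 against 12.2 in NTera2 (log2FC 2.67). FLT1 and PDGFRB were lower at 0.111 CPM in TCam-2 against 53.7 in NTera2 (log2FC -8.71) and 3.7 CPM in TCam-2 against 37.8 in NTera2 (log2FC -3.35). EPHA2 and EPHB6 were lower and EPHA7 higher, at 2.01 CPM in TCam-2 against 73.8 in NTera2, 1.32 CPM in TCam-2 against 34.8 in NTera2 and 29.2 CPM in TCam-2 against 1.38 in NTera2.

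Receptors that use gp130 carry the LIF and interleukin 6 signals of the naive state. Of 23 tested genes of gp130 and cytokine receptor signalling 11 were higher and 7 lower in TCam-2, with a median log2 fold change of 0.06. Strong calls were 3 higher and 4 lower, or 30.4%, against 23.2% of all tested genes. IL6ST, gp130 itself, had 118, 89.4, 111 and 54.9 CPM in the TCam-2 libraries, against 5.22, 3.69, 4.68 and 4.01 CPM in the NTera2 libraries (log2FC 4.40, SE 0.217, edgeR adjusted p = 1.31e-11). Its partners OSMR, IL6R and LIFR were at 34.1 CPM in TCam-2 against 2.21 in NTera2 (log2FC 3.93), 55.9 CPM in TCam-2 against 7.54 in NTera2 (log2FC 2.88) and 21.9 CPM in TCam-2 against 6.38 in NTera2 (log2FC 1.78), whereas CNTFR was lower at 0.174 CPM in TCam-2 against 38.1 in NTera2 (log2FC -7.66). JAK1 and the feedback inhibitor SOCS3 were higher at 77.6 CPM in TCam-2 against 29.7 in NTera2 and 85.3 CPM in TCam-2 against 22.1 in NTera2, STAT3 was lower at 83.6 CPM in TCam-2 against 113 in NTera2 (log2FC -0.44), and SOCS2 was lower at 2.81 CPM in TCam-2 against 48.5 in NTera2 (log2FC -4.15). In the insulin-like growth factor axis the ligand IGF1 was higher at 513 CPM in TCam-2 against 0.0275 in NTera2 (a ratio of 16300 with a counting interval of 4520 to 135000), and the binding proteins IGFBP2 and IGFBP4 were lower at 7.21 CPM in TCam-2 against 403 in NTera2 (log2FC -5.80) and 1.82 CPM in TCam-2 against 73.1 in NTera2 (log2FC -5.29). Their receptor IGF1R was at 71.5 CPM in TCam-2 against 105 in NTera2 (log2FC -0.55), and the RNA-binding protein IGF2BP1 was not called at 601 CPM in TCam-2 against 602 in NTera2.

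Notch and Hedgehog genes were divided, with 11 of 26 tested higher and 12 lower. Strong calls were 26.9%, near the 23.2% of all tested genes. HES1, a Notch target, was lower at 1.25 CPM in TCam-2 against 28.9 in NTera2 (log2FC -4.48) and HEY1, another, higher at 3.34 CPM in TCam-2 against 0.138 in NTera2 (log2FC 4.49). NOTCH1 was lower at 26.1 CPM in TCam-2 against 101 in NTera2 (log2FC -1.95) and NOTCH2 and NOTCH3 higher at 332 CPM in TCam-2 against 191 in NTera2 and 524 CPM in TCam-2 against 282 in NTera2. The Hedgehog effectors GLI1 and GLI3 were lower at 5.68 CPM in TCam-2 against 34.1 in NTera2 (log2FC -2.58) and 5.2 CPM in TCam-2 against 68.9 in NTera2 (log2FC -3.73), the receptor PTCH1 was lower at 33.9 CPM in TCam-2 against 89.9 in NTera2, and SHH had too few counts to be tested.

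Retinoic acid drives germ cells into meiosis and embryonal carcinoma cells into neural differentiation. Of 19 tested genes of its synthesis, transport and breakdown 10 were higher and 9 lower in TCam-2, with strong calls 4 higher and 6 lower. The binding proteins CRABP1 and CRABP2 were lower in TCam-2. CRABP1 had 0, 0.193, 0 and 0.144 CPM in the TCam-2 libraries, against 128, 131, 121 and 126 CPM in the NTera2 libraries (log2FC -10.48, SE 0.221, edgeR adjusted p = 3.66e-16). CRABP2, which hands the ligand to its receptor, was at 3.55 CPM in TCam-2 against 349 in NTera2 (log2FC -6.64). The degrading enzyme CYP26A1 was lower at 0.0193 CPM in TCam-2 against 8.79 in NTera2 (a ratio of 445 with a counting interval of 79.5 to 17600) and its relative CYP26B1 higher at 3.77 CPM in TCam-2 against 0.483 in NTera2 (log2FC 2.92). The synthetic enzymes ALDH1A2 and ALDH1A3 were at 2.43 CPM in TCam-2 against 0.396 in NTera2 (log2FC 2.58) and 28.3 CPM in TCam-2 against 20 in NTera2 (log2FC 0.50). The receptors RARA and RARG were lower at 8.63 CPM in TCam-2 against 18.9 in NTera2 and 25.1 CPM in TCam-2 against 62.5 in NTera2, and the orphan receptor NR2F2 was higher at 49.5 CPM in TCam-2 against 0.958 in NTera2 (log2FC 5.74).

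Genes of antigen presentation by MHC class I were more often lower than higher in TCam-2. Of 19 tested genes 5 were higher and 12 lower. B2M, the light chain that every class I molecule needs, had 5.42, 2.8, 4.88 and 3.17 CPM in the TCam-2 libraries, against 79.5, 69.2, 72.8 and 75.7 CPM in the NTera2 libraries (log2FC -4.18, SE 0.157, edgeR adjusted p = 4.4e-13). HLA-B and HLA-C were lower at 12.7 CPM in TCam-2 against 40.2 in NTera2 (log2FC -1.67) and 51.3 CPM in TCam-2 against 226 in NTera2 (log2FC -2.14), and HLA-E was higher at 71.2 CPM in TCam-2 against 44 in NTera2 (log2FC 0.69), with the limit that HLA genes share sequence and are polymorphic. The peptide transporters TAP1 and TAP2 and the class I transactivator NLRC5 were lower too, at 1.43 CPM in TCam-2 against 5.16 in NTera2, 1.07 CPM in TCam-2 against 5.54 in NTera2 and 0.235 CPM in TCam-2 against 1.49 in NTera2. The general chaperones CANX and CALR were higher, at 1274 CPM in TCam-2 against 378 in NTera2 and 1567 CPM in TCam-2 against 906 in NTera2.

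Innate sensing and interferon genes were called in both directions, with strong calls mostly lower in TCam-2. BST2, a membrane protein that tethers budding viruses, had 0, 0.289, 0 and 0 CPM in the TCam-2 libraries, against 161, 199, 184 and 213 CPM in the NTera2 libraries (ratio 3150, counting interval 1080 to 15300, edgeR adjusted p = 1.25e-15). IFITM1 and IFITM2 were lower at 10.8 CPM in TCam-2 against 88.4 in NTera2 (log2FC -3.03) and 0.151 CPM in TCam-2 against 22.4 in NTera2 (log2FC -7.06), and TRIM22 at 2.6 CPM in TCam-2 against 78.2 in NTera2 (log2FC -4.88). IFI16, a DNA sensor, and STAT2 were higher at 45.7 CPM in TCam-2 against 5.82 in NTera2 (log2FC 2.97) and 158 CPM in TCam-2 against 43.1 in NTera2 (log2FC 1.88). The list as a whole held 9 higher and 12 lower of 23 tested, and its strong calls were 1 higher and 7 lower. IFIT1, IFIH1 and STING1 had too few counts in both lines.

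Glycolytic genes were mostly higher in TCam-2 by modest amounts. Of 34 tested, 18 were higher and 6 lower, with 11.8% strong calls, below the 23.2% of all tested genes. LDHA, which turns pyruvate into lactate, had 838, 708, 641 and 643 CPM in the TCam-2 libraries, against 47.9, 43.6, 41.9 and 43.1 CPM in the NTera2 libraries (log2FC 4.00, SE 0.095, edgeR adjusted p = 1.35e-15). LDHB, the other lactate dehydrogenase chain, was lower at 149 CPM in TCam-2 against 338 in NTera2 (log2FC -1.18). The lactate carriers ran opposite as well, SLC16A3 at 75.7 CPM in TCam-2 against 5.51 in NTera2 (log2FC 3.77) and SLC16A1 at 126 CPM in TCam-2 against 468 in NTera2 (log2FC -1.89). ENO2 was higher at 1984 CPM in TCam-2 against 382 in NTera2 (log2FC 2.38), and GAPDH was not called at 11130 CPM in TCam-2 against 10830 in NTera2 (log2FC 0.04, SE 0.0555, edgeR adjusted p = 0.532).

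Mitochondrially encoded mRNAs were mostly lower in TCam-2, by less than 4-fold. Of 13 mRNAs encoded in the mitochondrial genome 12 were lower in TCam-2 and none higher, with a median log2 fold change of -0.73 and no strong call. MT-CO2 was at 3212 CPM in TCam-2 against 5621 in NTera2 (log2FC -0.81), and MT-ND1 was not called at 1613 CPM in TCam-2 against 1648 in NTera2. MT-ATP8 overlaps MT-ATP6 and MT-ND4L overlaps MT-ND4, so those pairs are not separate counts. Nuclear genes of complex I were split, with 18 of 37 higher and 10 lower and a median of 0.32. Ribosomal protein genes, both cytosolic and mitochondrial, and cholesterol synthesis genes held no strong call among 75, 77 and 22 tested, and the proteasome held 1 among 36, the immunoproteasome gene PSMB8 (0.179 CPM in TCam-2 against 2.79 in NTera2).

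Redox genes differed in both directions, in several cases between close relatives. Of 39 tested, 16 were higher and 18 lower, and 30.8% were strong calls, against 23.2% of all tested genes. GPX1, a glutathione peroxidase, had 0.542, 0.675, 0.155 and 0 CPM in the TCam-2 libraries, against 273, 339.7, 247 and 323 CPM in the NTera2 libraries (log2FC -9.81, SE 0.248, edgeR adjusted p = 3.16e-15). GPX2, its close relative, had 215, 204, 222 and 232 CPM in the TCam-2 libraries, against 0.879, 0.572, 0.317 and 1.11 CPM in the NTera2 libraries (log2FC 8.17, SE 0.159, edgeR adjusted p = 1.77e-16). Catalase, which breaks down the same peroxide, had 24.1 CPM in TCam-2 against no counts in NTera2 (at least 513-fold higher). GSTP1, a glutathione transferase, was at 5855 CPM in TCam-2 against 919 in NTera2 (log2FC 2.67), and per length it stood at 12100 TPM in TCam-2 and 2030 TPM in NTera2. MGST1, a membrane-bound transferase, was lower at 4.55 CPM in TCam-2 against 367 in NTera2 (log2FC -6.35), GSR lower at 14.3 CPM in TCam-2 against 94.9 in NTera2 (log2FC -2.73) and NQO1 higher at 349.8 CPM in TCam-2 against 53.5 in NTera2 (log2FC 2.71). The ferritin chains also ran opposite, FTH1 at 1852 CPM in TCam-2 against 904 in NTera2 (log2FC 1.03) and FTL at 264 CPM in TCam-2 against 1218 in NTera2 (log2FC -2.21). Per length, FTH1 was at 3360 TPM in TCam-2 and 1760 TPM in NTera2 and FTL at 1100 TPM in TCam-2 and 5450 TPM in NTera2, and both have processed pseudogenes that can share reads.

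**Figure D5:**
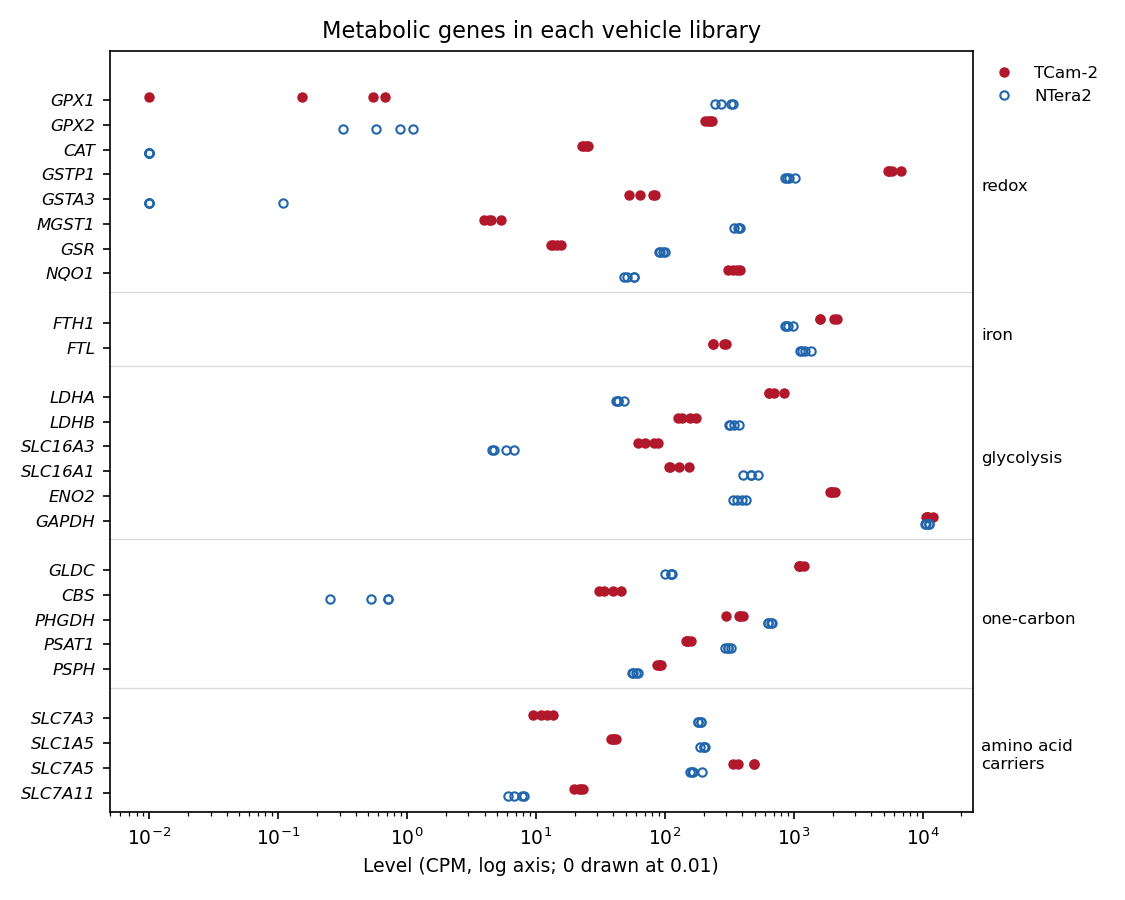
Levels of redox, iron, glycolysis, one-carbon and amino acid transport genes in each library, in CPM on a log axis, with genes running down the page. TCam-2 libraries are filled and NTera2 libraries open, and a library without counts is drawn at 0.01. GPX1 and GPX2, FTL and FTH1, and LDHB and LDHA each run in opposite directions.

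One-carbon and amino acid genes were split as well. Of 26 tested genes of serine, glycine and one-carbon metabolism 11 were higher and 12 lower in TCam-2, with 19.2% strong calls. Of 26 tested genes of amino acid transport and asparagine synthesis 8 were higher and 13 lower, with 23.1% strong calls. Neither share was above the 23.2% of all tested genes. GLDC, the glycine decarboxylase, had 1108, 1095, 1193 and 1121 CPM in the TCam-2 libraries, against 114, 112, 111 and 100.3 CPM in the NTera2 libraries (log2FC 3.37, SE 0.0675, edgeR adjusted p = 2.32e-16). CBS, the first enzyme of transsulfuration, was at 37.4 CPM in TCam-2 against 0.551 in NTera2 (log2FC 6.07). The serine synthesis enzymes PHGDH and PSAT1 were lower at 365 CPM in TCam-2 against 649.6 in NTera2 (log2FC -0.83) and 151 CPM in TCam-2 against 308 in NTera2 (log2FC -1.03) and the last enzyme, PSPH, higher at 90.5 CPM in TCam-2 against 58.4 in NTera2 (log2FC 0.63). Among carriers SLC7A3, for arginine and lysine, was lower at 11.5 CPM in TCam-2 against 186 in NTera2 (log2FC -4.01) and SLC1A5, for glutamine, at 40 CPM in TCam-2 against 199 in NTera2 (log2FC -2.31). SLC7A5 and SLC7A11, which both pair with SLC3A2, were higher at 422 CPM in TCam-2 against 169.6 in NTera2 and 21.8 CPM in TCam-2 against 7.2 in NTera2.

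G1 cell cycle regulators were split, with 12 of 25 tested higher and 11 lower in TCam-2. Strong calls were 24%, near the 23.2% of all tested genes. CCND1, cyclin D1, had 4.88, 2.31, 3.33 and 5.63 CPM in the TCam-2 libraries, against 275, 288, 239 and 264 CPM in the NTera2 libraries (log2FC -6.01, SE 0.161, edgeR adjusted p = 6.13e-15). CCND2 and CCND3 were higher at 421 CPM in TCam-2 against 143 in NTera2 (log2FC 1.56) and 38.6 CPM in TCam-2 against 21.7 in NTera2 (log2FC 0.82). Their partners CDK4 and CDK6 were lower at 241 CPM in TCam-2 against 525 in NTera2 (log2FC -1.12) and 4.13 CPM in TCam-2 against 17.7 in NTera2 (log2FC -2.09), and so was RB1 at 4.85 CPM in TCam-2 against 14.8 in NTera2 (log2FC -1.60). Of the inhibitors CDKN2C and CDKN2D were higher at 2.63 CPM in TCam-2 against 0.0442 in NTera2 (a ratio of 56.9 with a counting interval of 19 to 279) and 17.9 CPM in TCam-2 against 3.48 in NTera2 (log2FC 2.34), and CDKN1C and CDKN1B lower at 1.65 CPM in TCam-2 against 15 in NTera2 and 33 CPM in TCam-2 against 68 in NTera2. MYCN was lower at 39.8 CPM in TCam-2 against 163 in NTera2 (log2FC -2.03) and MYC higher at 34.8 CPM in TCam-2 against 21.9 in NTera2 (log2FC 0.67). DNA repair genes held a single strong call among 42 tested, MGMT, which removes alkyl groups from guanine, at 20 CPM in TCam-2 against 3.72 in NTera2 (log2FC 2.43). Among p53 targets and BCL2 family genes 16 were higher and 15 lower of 36 tested. Of these 13.9% were strong calls, below the 23.2% of all tested genes. PHLDA3 was at 907 CPM in TCam-2 against 84.1 in NTera2 (log2FC 3.43), BCL2L1, which blocks apoptosis, at 259.6 CPM in TCam-2 against 75 in NTera2 (log2FC 1.79), and BCL2 at 0.634 CPM in TCam-2 against 2.55 in NTera2 (log2FC -2.06).

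Imprinted genes, which are read from 1 parental copy and lose that mark in germ cells, held both directions. Of 26 tested, 11 were higher and 12 lower in TCam-2, and 8 of the lower ones were strong calls. H19, a maternally expressed RNA, had 28.1, 31.3, 23.1 and 33.7 CPM in the TCam-2 libraries, against 1.65, 2.54, 2.38 and 2.33 CPM in the NTera2 libraries (log2FC 3.71, SE 0.178, edgeR adjusted p = 9.03e-12). MEG3, another, had no counts in TCam-2 against 1.45 CPM in NTera2 (at least 24.1-fold lower). SNRPN, a paternally expressed gene of chromosome 15, was lower at 13.2 CPM in TCam-2 against 298 in NTera2 (log2FC -4.50). In the same domain the noncoding transcript SNHG14 was lower at 46.5 CPM in TCam-2 against 494 in NTera2 (log2FC -3.41). MKRN3, also in that domain, was higher at 10.7 CPM in TCam-2 against 1.07 in NTera2 (log2FC 3.31) and MAGEL2 lower at 0.431 CPM in TCam-2 against 4.96 in NTera2. PEG3, PEG10 and DLK1 were lower at 21.2 CPM in TCam-2 against 108 in NTera2, 114 CPM in TCam-2 against 536 in NTera2 and 0.88 CPM in TCam-2 against 18.6 in NTera2.

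A screen of 203 symbol stems with at least 10 tested genes described families without a chosen list. Stems also take in antisense RNAs named after a member, such as CACNA1C-AS1, FZD10-AS1 and DOCK8-AS1. The 6 lowest medians were those of CACNA (-3.01), SYT (-2.98), ADAM (-2), CHST (-1.81), FZD (-1.69) and GPR (-1.63). Voltage-gated calcium channel alpha 1 genes were lower in TCam-2 in 8 of 9 tested, among them CACNA1H at 11.6 CPM in TCam-2 against 93.7 in NTera2 (log2FC -3.01) and CACNA1A at 0.239 CPM in TCam-2 against 21.1 in NTera2 (log2FC -6.41). The auxiliary subunit CACNA2D2 ran against them at 2159, 2187, 2202 and 2044 CPM in the TCam-2 libraries, against 73.7, 89.9, 83.4 and 82.7 CPM in the NTera2 libraries (log2FC 4.70, SE 0.075, edgeR adjusted p = 2.36e-17). Synaptotagmins, calcium sensors of vesicle fusion, were lower in 8 of 13, among them SYT11 at 0.159 CPM in TCam-2 against 57.3 in NTera2 (log2FC -8.59) and SYT6 at 0.5 CPM in TCam-2 against 73.1 in NTera2 (log2FC -7.28), and higher in 2. The sulfotransferases of the CHST family split by gene, with CHST11, which acts on chondroitin, higher at 187 CPM in TCam-2 against 19 in NTera2 (log2FC 3.30) and CHST7 lower at 2.33 CPM in TCam-2 against 24.4 in NTera2 (log2FC -3.38).

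The 6 highest medians were those of PCDHGA (4.00), KRT (2.99), NBPF (1.48), DOCK (1.31), FTH (1.09) and PPIAP (1.02). KRT, FTH and PPIAP consist mostly of processed pseudogenes, and NBPF genes are near-identical copies, so these rest on reads that several genes can share. The gamma protocadherins are surface proteins made from a cluster in which many first exons share the same last ones. Of 18 tested gamma A and B genes 16 were higher in TCam-2 and 1 lower, at means of up to 16 CPM in TCam-2 against 2.9 in NTera2 for PCDHGA10. Of 2 tested gamma C genes in the same cluster 1 was strongly lower and 0 were higher. PCDHGA2 had 11.6, 13.5, 14.7 and 9.81 CPM in the TCam-2 libraries, against 0.165, 0.0636, 0.0793 and 0.233 CPM in the NTera2 libraries (log2FC 6.37, SE 0.315, edgeR adjusted p = 1.34e-11). The alpha cluster nearby went the other way, with 5 of 6 tested genes lower and PCDHA1 higher at 6.05 CPM in TCam-2 against 0.0746 in NTera2. Since the variable genes of a cluster share exons, their counts depend on how shared reads were assigned. DOCK8 and DOCK10, exchange factors of RAC and CDC42, were at 12.9 CPM in TCam-2 against 3.26 in NTera2 (log2FC 1.99) and 0.237 CPM in TCam-2 against 11.6 in NTera2 (log2FC -5.55).

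Along the genome the differences were spread over all chromosomes, and on some of them most calls went 1 way. On chromosome 5, 439 of 771 tested genes were higher in TCam-2 and 167 lower. On chromosome 8, 339 of 603 were higher and 148 lower. Chromosome 7 had 211 of 824 higher and 426 lower, and chromosome 16 had 186 of 763 higher and 395 lower. On chromosome 2 the calls were near even, at 400 higher and 426 lower of 1107. The median log2 fold change was highest on chromosomes 8 (0.59), 5 (0.57) and 10 (0.38) and, among nuclear chromosomes, lowest on chromosomes 13 (-0.48), 7 (-0.41) and 9 (-0.37). Copy number was not measured here. Genes at or above 1 CPM in 1 line and at most 0.05 CPM in the other numbered 308 for those silent in NTera2 and 403 for those silent in TCam-2. Some of these genes lay in runs of at least 3. Runs were read along genes at or above 1 CPM in either line, so genes under that level may lie between members. Only some of the runs silent in NTera2 are named here. A run on chr7:27162438-27250493 held HOXA9, HOXA13, EVX1 and EVX1-AS and was silent in NTera2, and chr12:53954903-54030823 held HOXC12, HOXC10, HOXC9 and HOXC6. Another, chr6:52750087-52957521, held alpha-class glutathione transferases, where GSTA3 was at 70.5 CPM in TCam-2 against 0.0275 in NTera2 (a ratio of 2260 with a counting interval of 626 to 18700) and GSTA2 at 11.7 CPM in TCam-2 against no counts in NTera2 (at least 249-fold higher). On chr18:63542369-63661893 lay the protease inhibitors SERPINB3 and SERPINB4, at 3.18 CPM in TCam-2 against no counts in NTera2 and 3.67 CPM in TCam-2 against no counts in NTera2. Silent in TCam-2 was a run of 9 genes on chr22:15784959-17558151, the longest found in either line, which held ADA2, CECR2 and the interleukin 17 receptor gene IL17RA, at no counts in TCam-2 against 13.1 CPM in NTera2 (at least 218-fold lower). The other runs silent in TCam-2 had 3 genes each and lay on chr19:20167214-20424970, with ZNF486, and chr19:22174766-22317176, with ZNF676 and ZNF729.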

How the data were processed

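Polyadenylated RNA was made into stranded libraries and sequenced as paired reads, per the labels' protocols. The submitters' processing notes name bcl2fastq 2.20.0, STAR 2.7.9a and featureCounts 1.6.2 and the build GRCh38/hg38. The authors deposited raw counts per gene. Neither the gene annotation used nor whether counting used strand is given in the sources used here. Of 280 named genes 12 overlap another tested gene on the same strand and 66 on the other, and these, like near-identical copies, are uncertain.

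Counts of the 8 vehicle libraries were compared by the robust quasi-likelihood test of edgeR 4.0.16 under R 4.3.3, after filterByExpr and TMM, with Benjamini-Hochberg adjustment over 16816 genes. SE is the log2 fold change over the square root of F. CPM uses TMM factors, and TPM the deposited length. For a line without counts the floor was 3 counts in its libraries together, 0.0599 CPM in TCam-2 and 0.0471 CPM in NTera2. Ratios to 1 to 3 counts carry exact 95% intervals, and floors and intervals cover counting error only. The method was tested on simulated data. No library was a copy of another, since chi-square over its degrees of freedom was 3.53 to 19.6 between libraries of a line. RIN was 9.1 to 9.5, and NTera2 vehicle replicate 1 had none. Same-numbered libraries of the lines correlated by 0.13, 0.02, 0.03 and 0.08 in their deviations, so numbers were not used as pairs.

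Members and lists were chosen with earlier results of these data known. The naming rule took markers, the largest strong calls of each list at 10 CPM or more, the smallest differences, and members of pathway roles. Of 280 named genes 144 met its marker or size criteria. Another 114 were list members named for their role or beside a relative, and 22 were in no list. Both of these sets, PRAME, the promoters printed and the protocadherin and BEX groups were chosen with their values in view. Alternatives were DESeq2 1.42.0 (size factors and Wald test), other count filters and fold minimums, leaving out each library, a replicate block, all libraries in 1 fit, and the same contrast in OPG, denosumab and RANKL libraries. A few genes are not reported here. Figures used matplotlib 3.10.9.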

Additional observations from a re-analysis of the deposited data

Results flagged for a closer look

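In groups of 4 libraries, 18 of 480 gene and line combinations had 1 library far from the other 3 relative to the range of the group, and chance alone marks about 1 in 20. In TCam-2 vehicle replicate 1 the level was high for SFRP2 at 7.83 CPM (2.79 to 3.18 in the others), SPRY4 at 200 CPM (163 to 164) and VIM at 1020 CPM (741 to 756), and low for MKRN3 at 9.45 CPM (10.9 to 11.2). TCam-2 vehicle replicate 2 was low for GDF3 at 8.68 CPM (14.6 to 15.8) and S100A6 at 6.56 CPM (10.6 to 11). TCam-2 vehicle replicate 3 was high for CDK6 at 4.95 CPM (3.75 to 3.95), and replicate 4 low for ALDH1A3 at 22.1 CPM (29.8 to 30.9). NTera2 vehicle replicate 1 was low for CDK4 at 490 CPM (532 to 540), GLI1 at 33.3 CPM (34.3 to 34.4) and SLC1A5 at 187 CPM (201 to 204), and high for DCX at 9.94 CPM (7.16 to 7.37). NTera2 vehicle replicate 2 was low for MT-CO2 at 5320 CPM (5710 to 5730) and WNT5A at 23.1 CPM (24.5 to 24.7), and high for POU5F1 at 1520 CPM (1260 to 1270) and MOV10L1 at 1.59 CPM (0.713 to 0.815). LGALS1 was high in NTera2 vehicle replicate 3 at 2.54 CPM (1.76 to 1.84) and TFAP2A in replicate 4 at 1.45 CPM (0.476 to 0.636).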

How the results depend on the processing

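Between the lines 12813 genes were called (6282 higher and 6531 lower in TCam-2) and 3909 strongly (1628 higher and 2281 lower). With no filter on low counts there were 6872 strong calls, 2961 higher and 3911 lower, since more genes were tested. With a minimum of 10 CPM in 4 libraries, which leaves fewer genes, 8457 were called (4185 higher and 4272 lower) and 1701 strongly (743 higher and 958 lower). Strong calls summed over lists numbered 459, and were 836 at a fold minimum of 2 and 290 at one of 8. The calls numbered 12770 with DESeq2 size factors and 12807 with the DESeq2 Wald test. With all 32 libraries in 1 fit, which tested 19216 genes, there were 14183 calls. The same contrast gave 12998 calls in OPG, 13251 in denosumab and 12628 in RANKL libraries. Leaving out 1 library at a time gave 12425 to 13021 calls and 4090 to 4236 strong ones. These fits tested 17110 to 17484 genes, against 16816 with all 8 libraries. Replicate numbers did not pair the lines, and a replicate block gave 12944 calls and 3941 strong ones. A difference of the line effect between treatments was called by edgeR for 0 of 19216 genes, with 1225 at an unadjusted p under 0.05. Of 4705 values of 280 named genes over 17 settings 4680 kept direction and call, 9 lost the call (NODAL, TET3 and HOXD10), 16 gained it (EED, FGFR2, FGFR3 and SNAI2) and 0 reversed. The causes were not tested. Genes of a few counts are limited by depth.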

Other observations

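Other symbol families gave values that belong to no group above. Few genes of the families that hold cancer-testis antigens could be tested, and no MAGEA or MAGEC gene was among them. The MAGE genes tested were 6 of 43, namely MAGED1, MAGED2, MAGEE1, MAGEF1, MAGEH1 and MAGEL2, and all 6 were lower in TCam-2, with MAGED1 at 145 CPM in TCam-2 against 400.1 in NTera2 (log2FC -1.47). MAGEA1, MAGEA3 and MAGEC1 had no counts in either line. Of 77 genes of the GAGE, XAGE, PAGE, SSX, CT45 and CTAG families 6 were tested, and 4 were higher in TCam-2. They included XAGE2, at 42.4 CPM in TCam-2 against no counts in NTera2 (at least 902-fold higher), and PAGE4, at 4.71 CPM in TCam-2 against 0.0635 in NTera2 (log2FC 6.04). Near-identical copies make single members of these families uncertain. S100 genes, which encode calcium-binding proteins, were higher in TCam-2 in 7 of 10 tested and lower in 3, with S100A6 at 9.73 CPM in TCam-2 against 0.0146 in NTera2 (a ratio of 632 with a counting interval of 113 to 25000) and S100A4 at 0.0361 CPM in TCam-2 against 2.03 in NTera2 (a ratio of 51.4 with a counting interval of 14 to 429). The galectins LGALS1 and LGALS3, which bind cell-surface sugars, were at 103 CPM in TCam-2 against 1.99 in NTera2 (log2FC 5.71) and 31.7 CPM in TCam-2 against 3.91 in NTera2 (log2FC 3.02).

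Of 22 tested semaphorins and plexins 14 were lower and 4 higher, with SEMA5B at 0.261 CPM in TCam-2 against 80.5 in NTera2 (log2FC -8.23) and PLXNA2 at 209 CPM in TCam-2 against 13.3 in NTera2 (log2FC 3.98). Of 20 tested ephrins and EPH receptors 13 were lower and 7 higher. All 5 BEX genes, small X-linked genes, were strongly lower, with BEX1 at 0.197 CPM in TCam-2 against 179 in NTera2 (log2FC -9.74).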
